A study of Mus musculus with 16 samples.

Results

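The regions described here carried the histone mark H3K27ac in the gut epithelium of mouse embryos at embryonic stage E12.5, by called peaks, and in none of the later cells profiled with it. H3K27ac, histone H3 acetylated at lysine 27, marks active promoters and enhancers, and it was mapped by chromatin immunoprecipitation and sequencing (ChIP-seq). Overlapping or touching peaks of the 8 ChIP libraries were joined into regions, and a region counted as present in a library with at least 1 bp of peak. Of 79482 merged regions, 3223 (4.06%) were present in both E12.5 libraries and absent from the other 6.

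There were 4 groups of 2 libraries, described as biological duplicates: small-intestinal epithelium at E12.5, the same tissue at E14.5, Lgr5+ intestinal stem cells (ISC) and enterocytes. All came from mice of mixed C57BL/6 CD1 background. ISC and enterocytes came from adult Lgr5EGFP-Cre-ERT males at postnatal day 60, and no transgene is named for the embryos. Embryonic cells and enterocytes were sorted for EpCAM, a surface protein of epithelial cells, and against CD31 and CD45, markers of endothelium and leukocytes. ISC were sorted for high EGFP from the Lgr5 locus. The EpCAM gate takes every epithelial cell type present, and pooling of animals is not described in the labels. The sorted cell types were not checked against marker genes, because no gene annotation on mm9, the build of the peak lists, was used.

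Acetylated H3K27 sits on the nucleosomes that flank active regulatory DNA, where acetyltransferases such as p300 and CBP deposit it and histone deacetylases remove it. Enhancers differ more between cell types and stages than promoters do, so the mark is widely used to follow a tissue through development. At E12.5 the mouse intestine is a tube lined by a thick proliferating epithelium without villi. Villi emerge over the following days, and the crypts that house Lgr5+ stem cells form after birth. Enterocytes are the absorptive cells of the intestine, most of them on the villi. The protocol in the labels removes the villi, prepares crypts and then describes the enterocyte sort, so whether the enterocytes profiled came from villi or crypts is unclear.

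Depth ranged from 34.6 to 54.6 M ChIP tags and the lists from 35614 to 52510 peaks. At E12.5, replicate 1 had 37.9 M tags, 46710 peaks and 43.6 Mb covered, and replicate 2 had 40.4 M tags, 52510 peaks and 59.99 Mb covered. Replicate 2 thus had the longer list of the E12.5 pair. In a mixed sort, fewer cells with the mark at a region and less of the mark per cell cannot be told apart.

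The regions found only at E12.5 were mostly short and of modest strength. In replicate 1 they held 3714 peaks, 7.95% of its list, and in replicate 2 they held 3369 peaks, 6.42% of its list. They took up 3.88% of the covered length in replicate 1 and 3.91% in replicate 2. The median region was 642 bp long, with quartiles of 460 and 942.5 bp. Peaks covered a median of 383 bp of a region in replicate 1 and 579 bp in replicate 2, or 481 ± 139 bp (mean ± SD, n = 2). Replicate 2 covered more of the region in 2559 of the 3223 regions and replicate 1 in 661, and replicate 2 also had the longer total covered length.

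Strength is given as the rank of a region's best peak by −log10 q within its own list, since the scores of the peak caller cannot be set against each other across lists. These ranks belong to the lists that chose the regions and are a description, with no test. The median region found only at E12.5 stood at percentile 25.6 of the replicate 1 list and at percentile 40.6 of the replicate 2 list. The median fold enrichment over the local background, as the authors' peak caller gave it, was 3.85 in replicate 1 and 4.10 in replicate 2. Of the 3223 regions, 357 (11.1%) lay above the median of both lists and 16 (0.496%) above the 75th percentile of both. At the weak end, 1764 (54.7%) lay under the 25th percentile of at least 1 list.

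Strength went with length. The 1005 regions under 500 bp had median ranks of 17.5 in replicate 1 and 27.9 in replicate 2. The 614 regions of 1000 to under 2000 bp had median ranks of 40.7 in replicate 1 and 55.4 in replicate 2. The 24 regions of 3000 bp or more had median ranks of 73.2 in replicate 1 and 76.1 in replicate 2, and they lay on 15 chromosomes. The summits of the replicates' best peaks were a median of 101 bp apart, and within 250 bp in 2607 regions (80.9%). Both peaks had to lie in the same, mostly short, region, so much of this closeness was fixed by the rule. The share within 250 bp was 84.9% for regions found only at E14.5, 80.7% for ISC and 83.1% for enterocytes.

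Regions held by both E12.5 libraries numbered 28387, and how widely they were shared with the later cells fell into a pattern with 2 ends. At one end, 12282 (43.3%) were also present in all 6 other libraries, and at the other the 3223 (11.4%) were present in none. Between these, 4361 regions were shared with exactly 2 other libraries and 3714 with exactly 4. Odd numbers of other libraries were rarer, with 1457, 1811 and 1539 regions shared with 1, 3 and 5 of them. The median rank at E12.5 was lowest for the regions shared with no other library and highest for those shared with all 6. In replicate 1 it was 25.6 against 82.9, and in replicate 2 it was 40.6 against 85.7. Median region length rose as well, from 642 bp for regions shared with no other library to 2871 bp for those shared with all 6. Strength at E12.5 and region length thus both moved with how widely a region was shared. The part of either in the absence of the regions from later cells was not tested.

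**Figure D1:**
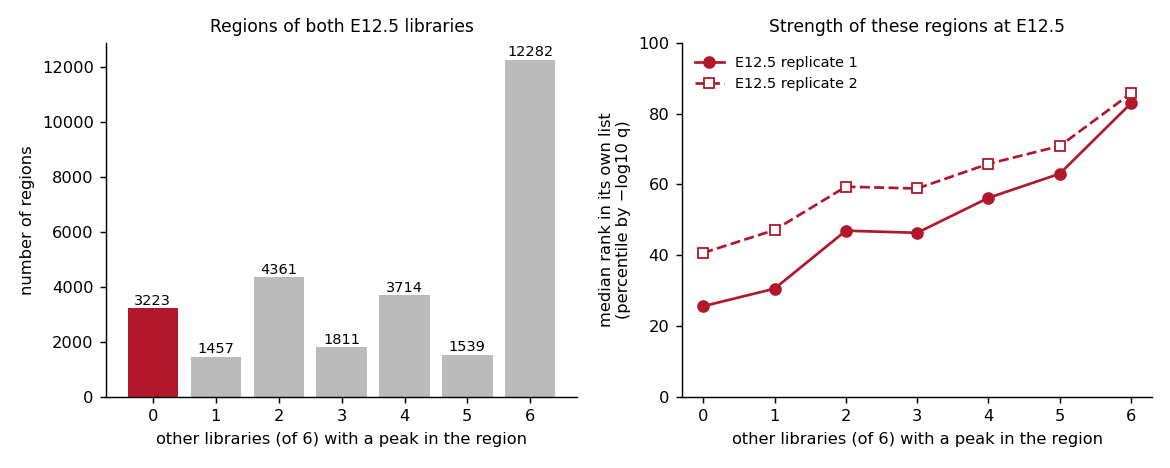
Left, the number of regions present in both E12.5 libraries by how many of the other 6 libraries also have a peak there, with the 3223 regions found only at E12.5 in red. Right, the median rank (percentile by −log10 q within the library's own list) of the same regions in E12.5 replicate 1 (filled circles) and replicate 2 (open squares), which is lowest, at 25.6 and 40.6, where no other library has a peak.

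The longest of the regions, chr5:117116821-117125525 on mm9, was covered over 8028 bp in E12.5 replicate 1 and 8588 bp in replicate 2. It was also the strongest of the 3223 by the lower of its ranks, at percentile 95.6 of the replicate 1 list and 97.3 of the replicate 2 list. The nearest peak of any other library, from E14.5 replicate 1, lay 244 kb away. No later library thus had a peak on the scale of the region's own length around it.

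Ordered by the smaller of the lengths covered in the E12.5 libraries, as are the 10 longest here, the next was chr12:98361589-98367387, with 5026 bp in replicate 1 and 5792 bp in replicate 2, at percentiles 82.6 and 84.2. Here the nearest peak of a later library was 1121 kb away, so this locus lay in a tract of the chromosome with no called H3K27ac in any of the other 6 libraries. After it came chr5:103241588-103247672, with 4953 bp in replicate 1 and 5887 bp in replicate 2. Replicate 1 covered it with 6 separate peaks and replicate 2 with a single one, and its rank in replicate 1, 49.1, was the lowest of the 10 longest there, beside 69.2 in replicate 2. The fourth, chr2:147846816-147852451, had 4485 bp in replicate 1 and 5372 bp in replicate 2. Its nearest other peak, in ISC replicate 2, was 2.67 kb away.

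The other 6 of the 10 longest had 2966 bp or more in both libraries. They were chr1:90399252-90403224, chr8:9041608-9045165, chr15:66228227-66231802, chr11:35452431-35455965, chr4:127095126-127098455 and chr8:122527123-122530727. In chr1:90399252-90403224 peaks covered 3861 bp in replicate 1 and 3525 bp in replicate 2, the reverse of the usual order of the E12.5 libraries. In chr8:9041608-9045165 they agreed most closely, with 3460 bp in replicate 1 and 3436 bp in replicate 2. The gap to the nearest later peak ranged widely, from 1.86 kb for chr11:35452431-35455965 to 101 kb for chr15:66228227-66231802. In 7 of the 10 longest regions the nearest later peak was one of E14.5, 5 times in replicate 1.

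**Figure D2:**
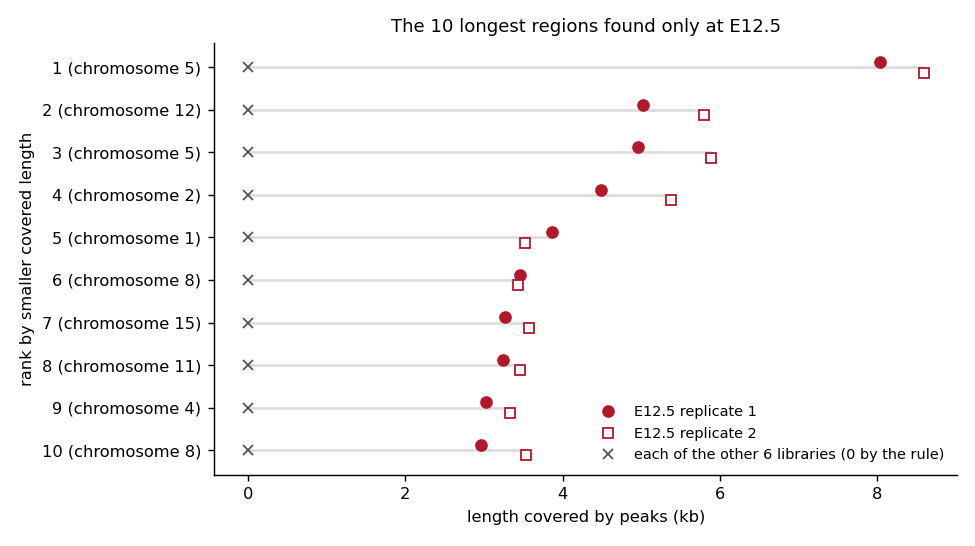
Length covered by peaks (kb) in the 10 longest regions found only at E12.5, ordered by the smaller of the E12.5 values; filled circles are E12.5 replicate 1, open squares E12.5 replicate 2, and crosses the other 6 libraries, which are at 0 by the rule. The longest, on chromosome 5, reaches 8028 bp in replicate 1 and 8588 bp in replicate 2, and the shortest of the 10 by this order 2966 and 3531 bp.

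Of the 5 strongest regions, 3 were also among the 10 longest: the first on chromosome 5, chr4:127095126-127098455 and chr12:98361589-98367387. The chromosome 4 region had 3027 bp in replicate 1 and 3330 bp in replicate 2, at percentiles 87.6 and 85.8. The remaining pair were chr8:122700542-122702867, at percentiles 83.4 and 85.3, and chr9:74171601-74174266, at percentiles 85.6 and 82.4. The chromosome 9 region had no later peak within 213 kb. By contrast, the one on chromosome 8 lay 0.146 kb from a peak of E14.5 replicate 1, so it bordered chromatin with called H3K27ac in that library. Joining peaks within 1 kb would take it out of the set.

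The weakest members by the same measure mark the inner edge of the rule. At chr9:64801063-64801392 peaks covered 260 bp in replicate 1 and 277 bp in replicate 2, and the replicate 1 peak had the −log10 q of 1.35, close to the calling threshold. At chr13:109292210-109292683 they covered 269 bp in replicate 1 and 230 bp in replicate 2, where −log10 q was 1.35 in replicate 2. At the outer edge stood the 1457 regions with a peak in exactly 1 later library. That library was E14.5 replicate 1 in 1059 of them (72.7%), E14.5 replicate 2 in 240, ISC replicate 2 in 127, enterocytes replicate 1 in 19, enterocytes replicate 2 in 7 and ISC replicate 1 in 5. The peak that kept these regions out was weak in its own list, at a median percentile of 21.0 for E14.5 replicate 1 and 16.2 for E14.5 replicate 2.

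The longest of these near misses was chr12:106144938-106152262. Peaks covered 6574 bp of it in E12.5 replicate 1 and 7325 bp in E12.5 replicate 2, against 295 bp in E14.5 replicate 1 and none elsewhere. The second, chr4:40254519-40261265, had 6039 bp in E12.5 replicate 1 and 6465 bp in E12.5 replicate 2, against 663 bp in ISC replicate 2. Both were covered further at E12.5 than any region found only at E12.5 except the longest.

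The rule also depends on where each list ends. When only peaks with −log10 q of at least 10 were kept in every list, 1032 regions were found in both E12.5 libraries alone, and 383 of them overlapped the 3223. Of the other 649, 630 (97.1%) had a weaker peak in at least 1 of the E14.5 lists as deposited, 591 in replicate 1 and 425 in replicate 2. ISC lists had such a peak in 20 and 83 of the 649, and enterocyte lists in 10 and 8. The 1032 regions leave out any with a peak of −log10 q of at least 10 in a later list, adult lists included. Among the 1032, those that E14.5 lists hold weakly were thus more numerous than those that E14.5 lists do not hold at all.

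Many of the regions had a peak of later cells in their surroundings. The median gap to the nearest peak of any other library was 7.22 kb. It was shorter for the sets that the same rule gave for each other group: 3.86 kb for E14.5, 5.34 kb for ISC and 3.445 kb for enterocytes. Each set was measured to the libraries of the other groups, whose lists differ in length, so these gaps are not on equal terms. A peak of another library lay within 1 kb of 21.3% of the regions found only at E12.5. For the sets of E14.5, ISC and enterocytes that share was 28.7%, 17.5% and 24.3%, so against ISC the order was reversed. An E14.5 peak lay within 10 kb of 1698 of the 3223 regions (52.7%), and an adult peak within 10 kb of 1130 (35.1%). Within 1 kb there was an E14.5 peak at 628 regions (19.5%) and an adult peak at 229 (7.11%). The corresponding shares over all merged regions are not given, so these counts cannot be read as particular to the regions. The order of the libraries was the same at every distance shown, E14.5 first, ISC next and enterocytes last. The median gap was 9.25 and 12.3 kb for E14.5 replicates 1 and 2, 36.5 and 25.03 kb for ISC replicates 1 and 2, and 61.1 and 55.5 kb for enterocytes replicates 1 and 2. Enterocytes also had the fewest peaks and the least covered length of the 4 groups, and the part of this in the order was not tested. At the far end, 584 regions (18.1%) had no later peak within 50 kb. These isolated regions were of ordinary size and strength, with a median length of 627.5 bp and median ranks of 28.8 in replicate 1 and 42.3 in replicate 2.

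**Figure D3:**
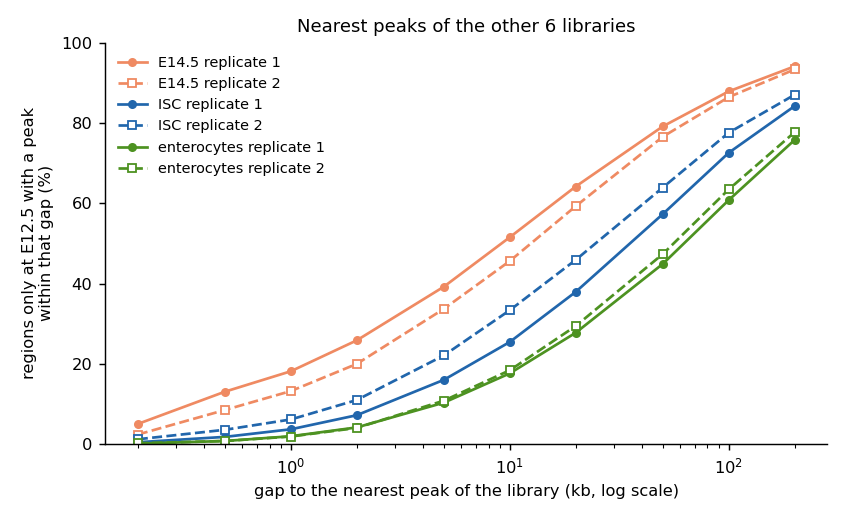
Share of the 3223 regions found only at E12.5 (y axis, percent) that have a peak of each later library within a given gap (x axis, kb, log scale). The E14.5 curves lie highest, at 51.5 and 45.6% within 10 kb, followed by ISC at 25.4 and 33.4% and enterocytes at 17.6 and 18.4% (replicates 1 and 2 in each).

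The regions were often grouped along the chromosomes. Chained where neighbours lay at most 50 kb apart, 1702 of them (52.8%) fell into 653 stretches, of which 449 held 2 regions and 50 held 5 or more. The other 1521 stood alone. The share in stretches was 70.8% for the 24 regions of 3000 bp or more and 46.9% for those under 500 bp. The corresponding share was 42.5% for the 2252 regions found only at E14.5, 54.3% for the 3593 found only in ISC and 68.6% for the 2748 found only in enterocytes. Each of these sets was chosen by the same rule from its own group, and the sets differ in size, which by itself moves the share.

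The stretch with most regions lay on chromosome 8 from 9041608 to 9234196, 193 kb long, with 10 regions found only at E12.5. It starts with chr8:9041608-9045165, one of the 10 longest. Over the whole stretch, peaks covered 22.7 and 28.9 kb in E12.5 replicates 1 and 2, against 6.93 and 4.99 kb in E14.5 replicates 1 and 2 and none in the 4 adult libraries. Besides the 10 regions it held 14 others, and every peak of E14.5 lay in those, as the rule requires. The 10 regions supplied 8.24 and 10.4 kb of the lengths in E12.5 replicates 1 and 2.

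A shorter stretch on chromosome 15, from 102844504 to 102941396, held 9 such regions. Peaks covered 12.2 and 14.4 kb of it in E12.5 replicates 1 and 2, against 0.780 and 0.301 kb in E14.5 replicates 1 and 2 and none in ISC or enterocytes. The 9 regions, empty in every later library by the rule, supplied 6.94 and 9.14 kb of the lengths in E12.5 replicates 1 and 2. That part of the difference was therefore fixed by the choice of regions. Its regions were moderate in strength, the strongest being chr15:102940408-102941396 at percentiles 77.3 and 73.6.

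The third stretch, on chromosome 12 from 106052134 to 106143207, also held 9 of the regions, among 24 others. It was covered over 27.2 and 35.6 kb in E12.5 replicates 1 and 2, against 19.0 and 14.46 kb in E14.5 replicates 1 and 2, 9.27 and 17.3 kb in ISC replicates 1 and 2 and 5.76 and 6.92 kb in enterocytes replicates 1 and 2. Here the E12.5 libraries lay above every other library, but unlike the other stretches this locus kept the mark in all groups. The 9 regions, empty in later libraries by the rule, supplied 5.04 and 7.22 kb of the lengths in E12.5 replicates 1 and 2. Most of its 9 regions lay towards its far end. The near miss chr12:106144938-106152262 begins 1.73 kb beyond that end.

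**Figure D4:**
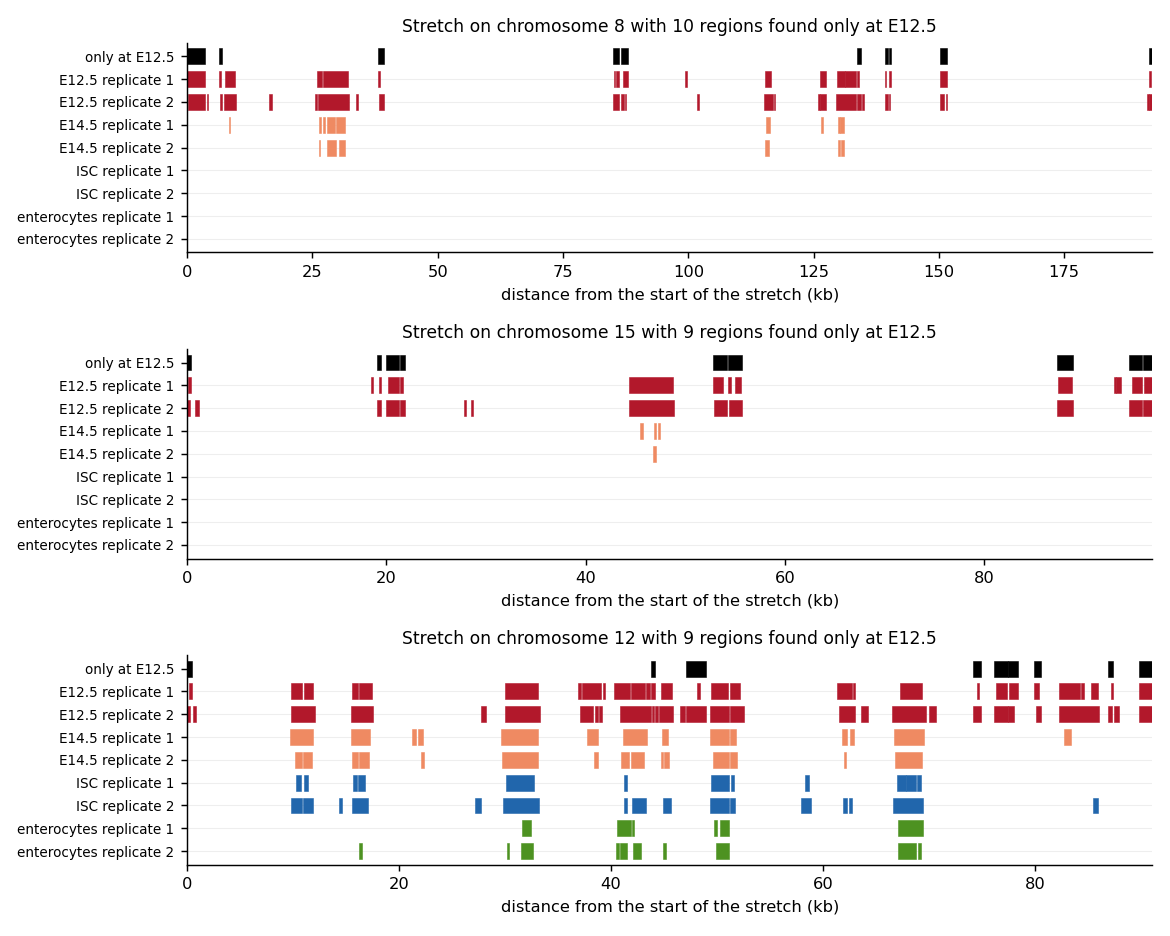
Peaks of the 8 libraries (one row each, coloured by group) along the 3 stretches with most regions found only at E12.5, with those regions in black in the top row; the x axis is the distance from the start of the stretch in kb. The stretches on chromosomes 8 and 15 have no peak in ISC or enterocytes, and that on chromosome 12 has peaks in all 8 libraries.

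Whether the mark also differed outside the regions themselves was examined in fixed windows of 20 kb that hold no such region. These windows come from the same peak lists that the rule read. The length covered by peaks was scaled to equal library totals, and its log2 after adding 500 bp went into a limma model of the 30733 windows that had a peak in at least 2 libraries. Calls had a Benjamini-Hochberg adjusted p under 0.05. A total of 2679 of these windows held a region found only at E12.5, and 1886 without one lay directly beside such a window. Neighbouring windows share loci with the regions and are not independent of each other, so their counts are set beside the share called elsewhere with no further test.

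Against E14.5, 297 of the 1886 neighbouring windows (15.7%) were called higher at E12.5, where the share called over all windows was 11.7% and that over the 28054 windows without a region was 5.63%. Another 157 (8.32%) were called lower at E12.5, against 14.3% of all windows and 15.6% of those without a region. Relative to windows without a region, the neighbouring windows thus held 2.80 times the share of higher calls and 0.532 times the share of lower calls. The share of higher calls was 9.54% in windows 2 steps away, 7.36% at 3 steps and 4.30% at 6 steps or more. Single libraries moved these shares. Higher calls made up 9.04% of the neighbouring windows and 5.32% of all windows without E12.5 replicate 1, 10.5% and 5.73% without E12.5 replicate 2, and 7.41% and 7.31% without E14.5 replicate 2, where they were nearly equal. Lower calls made up 5.38% of the neighbouring windows and 9.52% of all windows without E12.5 replicate 1, 3.61% and 6.89% without E14.5 replicate 1, and 3.30% and 6.41% without E14.5 replicate 2. Under 2 settings the share of higher calls beside the regions was below that over all windows, which include those that hold a region. It was 5.14% against 6.81% without scaling of the library totals, and 11.1% against 13.0% in windows of 50 kb. Under each setting tried, the share of higher calls beside the regions was 1.93 to 2.99 times that in windows without a region.

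Against the adult cells the same direction held. In the comparison with ISC, 785 neighbouring windows (41.6%) were called higher at E12.5, with 27.7% of all windows and 22.0% of those without a region. Lower calls numbered 272 (14.4%), with 24.5% of all windows and 26.7% of those without a region. In the comparison with enterocytes, 980 (52.0%) were called higher, with 37.9% of all windows and 32.9% of those without a region, and 286 (15.2%) lower, with 21.5% and 23.4%. Against the mean of the other 3 groups, 876 (46.4%) were called higher, with 31.5% of all windows and 25.9% of those without a region, and 286 (15.2%) lower, with 25.9% and 28.3%. These 4 comparisons share the E12.5 libraries and are not independent of each other.

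**Figure D5:**
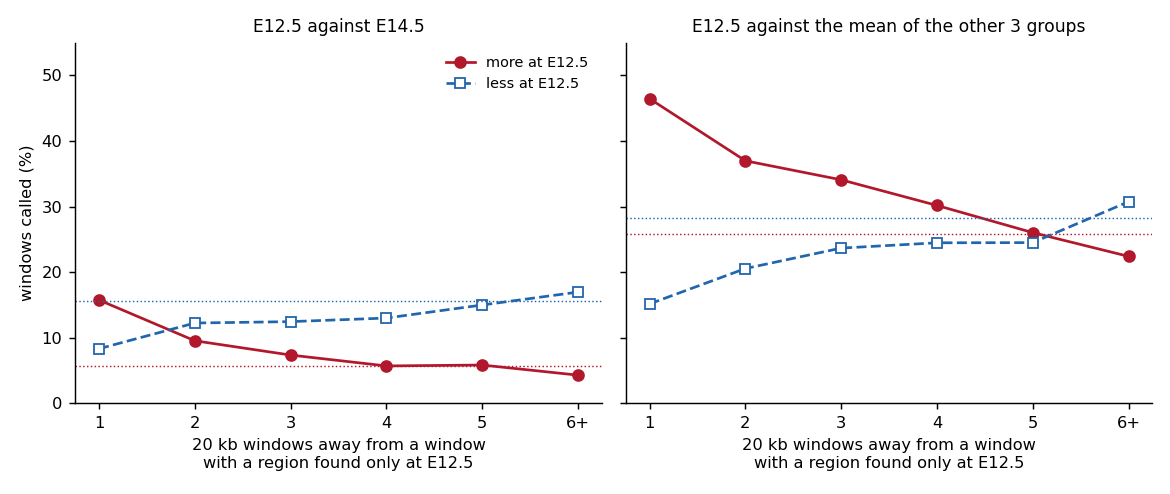
Percent of 20 kb windows called by limma as covered more (red circles) or less (blue squares) at E12.5, by distance in windows from the nearest window with a region found only at E12.5; dotted lines give the share over all windows without such a region. Against E14.5 (left) the share called higher is 15.7% beside the regions and 4.30% at 6 windows or more, and against the mean of the other 3 groups (right) it is 46.4% and 22.4%.

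Beside the 10 longest regions and the 3 named stretches, 6 windows without such a region could be tested. In 5 of them both E12.5 libraries lay above every other library. All 6 were called higher by limma at E12.5 than the mean of the other 3 groups. That call was made in 31.5% of all windows and in 46.4% of the 1886 neighbouring windows. The 6 lie beside regions picked for length or grouping at E12.5, so the count is a description. The 3 named ones were those with the largest difference from that mean, and the first, next to the chromosome 8 stretch, was chr8:9020001-9040000, with a log2 difference from the mean of 3.13. Peaks covered 7.80 and 8.11 kb of it in E12.5 replicates 1 and 2, against 4.555 and 3.70 kb in E14.5 replicates 1 and 2 and 0 kb in the 4 adult libraries. The log2 difference from E14.5, on the scale with equal library totals and 500 bp added, was 1.103 (adjusted p = 0.00377, limma), the smallest of the 3. The kb values given for these windows are unscaled, so the log2 differences do not follow from them directly.

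The window chr2:147820001-147840000, beside the fourth longest region, had 5.01 and 5.71 kb in E12.5 replicates 1 and 2, against 1.43 and 1.29 kb in E14.5 replicates 1 and 2. ISC replicates 1 and 2 had 0.460 and 1.94 kb there, and enterocytes none. The log2 difference from E14.5 was 1.85 (adjusted p = 0.0074, limma). In chr5:103260001-103280000, beside the region chr5:103241588-103247672, E12.5 replicates 1 and 2 had 4.82 and 5.38 kb, against 2.14 and 1.56 kb in E14.5 replicates 1 and 2. ISC replicates 1 and 2 had 0.603 and 0.870 kb, and enterocytes again none. In this window the log2 difference from E14.5 was 1.47 (adjusted p = 0.0011, limma). They were taken from the windows in which the E12.5 libraries did not overlap with the later ones, so their separation is part of the choice.

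Set beside the regions confined to each other group, those found only at E12.5 were of middling length. Their median length was 642 bp, against 550 bp for E14.5, 930 bp for ISC and 703 bp for enterocytes. The share of at least 1000 bp was 22.3%, against 15.4% for E14.5, 46.3% for ISC and 26.8% for enterocytes. In their own lists the median ranks were 25.6 and 40.6 (replicates 1 and 2) at E12.5, against 29.9 and 26.2 at E14.5, 27.2 and 48.5 in ISC and 41.5 and 33.8 in enterocytes. All of these sets ranked well below the regions present in every library, whose medians ran from 77.5 to 87.6 over the 8 lists. The E12.5 pair overlapped with the pair of each other group, so the E12.5 regions could not be placed above or below any of them by strength.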

How the data were processed

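H3K27ac was profiled in 8 ChIP libraries, 2 per group. The submitters' processing notes name the build mm9 and the tools bcl2fastq 1.8.4, Bowtie 1.1.2 and SAMtools 1.2. Per the file headers, the authors called peaks for each library against its own input with MACS 2.1.0.20140616 (narrow mode, q threshold 0.05, 51 bp tags, 1 tag per position). Per the file headers, the pileup is a coverage signal, strength is given as −log10 p and −log10 q, and fold enrichment is a ratio over the local background. These deposited values served to rank and filter peaks inside their own list. Tags per library were 34.6 to 54.6 M for ChIP and 35.0 to 38.8 M for input. The lists hold no read count per region and library, so precision rests on 2 libraries a group.

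Peaks were merged and classified with pandas 2.3.3, and windows fitted with limma 3.58.1 in R 4.3.3 (lmFit, contrasts, eBayes with trend and robust, 4 group means, 4 residual degrees of freedom). Scripts were tested on simulated data. The regions and lists were chosen with earlier results of these data known, and a region chosen by its peaks is given no test. Named were the 10 longest and 5 strongest regions, the 3 stretches with most regions, the 2 longest near misses, the 2 weakest regions, and the 3 neighbouring windows with the largest change whose libraries did not overlap. Chromosome 18 was counted but not named. No mm9 genome or annotation was used, so genes and sequences are not given. Alternatives were peak thresholds, equal list lengths, merging distance, cover, window size, added bp, scaling, a filter, a replicate block and each library left out.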

Additional observations from a re-analysis of the deposited data

How the results depend on the processing

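All 12 named regions, the longest and strongest, were still found only at E12.5 with −log10 q of at least 10, with equal numbers of peaks per list and with at least 50% cover in both E12.5 libraries. They were chosen for length or strength, so these settings could hardly remove them. The lowest −log10 q among them was 10.3, at chr5:103241588-103247672 in replicate 1. Merging within 1 kb would remove chr8:122700542-122702867, which lies 0.146 kb from an E14.5 peak. The number of regions changed with the setting. It was 1032 with −log10 q of at least 10 in all lists, 384 with that threshold for E12.5 alone (an alternative chosen after seeing the data) and 2064 with merging within 1 kb. It was 2264 with equal numbers of peaks, 3404 with 20% cover and 2394 with 50% cover. Leaving out 1 library gave 3228 to 10485, the highest without E12.5 replicate 1, next 5902 without E12.5 replicate 2 and 4357 without E14.5 replicate 1. An arm of 1 library meets the rule more easily. The median covered length, 481 bp, was 1111 bp with −log10 q of at least 10 and 704 bp with equal numbers of peaks, and 316 to 504.5 bp with a library left out.

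Stretches numbered 598 at a gap of 20 kb and 689 at 100 kb, against 653. For windows, 215 of 240 values lay within 1.5 times. Without scaling, 2094 windows were higher than at E14.5, and 5.14% of neighbouring windows were higher than at E14.5 and 9.86% lower than in enterocytes. With −log10 q of at least 10, calls fell to 1556 higher and 2474 lower than at E14.5, and to 4980, 7144 and 6062 higher than in ISC, in enterocytes and than the mean. Windows of 50 kb are fewer by construction and gave 2834, 4751, 4265 and 4835 lower calls against E14.5, ISC, enterocytes and the mean. With a library left out, higher and lower calls ranged over 1561 to 3634 and 1917 to 4435 against E14.5, 6110 to 8636 and 5299 to 7771 against ISC, 9029 to 11581 and 5824 to 6657 against enterocytes, and 6434 to 10110 and 5413 to 7250 against the mean. Shares of neighbouring windows called higher and lower ranged over 7.41 to 17.2% and 3.30 to 9.82%, 35.6 to 42.7% and 10.6 to 15.6%, 47.2 to 53.4% and 13.3 to 15.8%, and 36.5 to 48.0% and 10.2 to 14.4% in the same order. The fewest higher calls against the mean, 6434, came without E12.5 replicate 2. A group left with 1 library is assumed to vary like the others. The median log2 difference from enterocytes over all windows was 0.26, and 0.43 without scaling.

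The deviations of libraries with the same replicate number correlated at −0.176 to 0.173 between groups. Whether such libraries shared a batch was not tested. With the replicate block, 3196 windows were higher and 4032 lower than at E14.5, and 12.6% of neighbouring windows were higher.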

Other observations

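Regions found only at E12.5 lay on all 19 autosomes and on the X chromosome, and on neither the Y chromosome nor the mitochondrial genome. The Y chromosome held only 16 merged regions and the mitochondrial genome 1, too few to read the absence as a result. Of the merged regions of a chromosome, 3.33 to 5.11% were of this kind on the autosomes, with a median of 3.86%, and 5.18% (88 of 1698) on the X. The X thus had the highest share of the 20 chromosomes, just above chromosome 12 with 5.11% (168 of 3285) and chromosome 1 with 4.96% (250 of 5044). For regions found only in ISC the X had the second highest share, 5.30%. For those found only at E14.5 it ranked 19th, with 2.24%, and for those found only in enterocytes also 19th, with 2.77%. The adult mice were males, embryo sex is not in the labels, and its part in these shares was not tested.

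Of the 42583 regions present in at least 1 E12.5 library, 28387 were present in both. Replicate 2 had 6840 regions found in no other library of the series and replicate 1 had 1147. From a region found only at E12.5, the nearest E12.5 peak outside such regions lay a median of 7.78 kb away in replicate 1 and 1.75 kb away in replicate 2.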
